A study of Drosophila melanogaster with 2 samples.

Results

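The genes that encode the subunits of the proteasome were examined in a map of Groucho binding in Drosophila melanogaster embryos. They were chosen by name, as the protein-coding genes whose symbol in the dm6 annotation begins with Rpn, Rpt, Prosalpha or Prosbeta, and the naming rule uses no measured value. This gave 48 of 13945 protein-coding genes. Of these, 32 encode the main subunits and 16 are paralogs, whose symbols end in R or T with or without a number. The map came from ChIP-seq in 1 group of 2 biological replicates, numbered 1 and 3 in the labels. Both were mixed-sex whole embryos of the gro-GFP strain aged 0 to 24 h, from a line that stably carries gro with GFP at its C-terminus, described in the labels also as an insertion targeting gro. An anti-GFP antibody was used for the precipitation, after sonication to fragments of 200 to 800 bp. Every sample carried the fusion, no precipitate from embryos without it was analysed here, and the embryos span all of embryonic development and all tissues. A region bound in few cells and a region bound weakly in many cannot be told apart in such samples.

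The proteasome is the protease that degrades ubiquitin-tagged proteins in the cytoplasm and nucleus. Its barrel-shaped core is built from stacked rings of alpha subunits, which gate entry, and beta subunits, some of which carry the proteolytic sites. A regulatory particle caps the core. Its base holds the Rpt ATPases, which unfold substrates and thread them into the core, and the ubiquitin receptors Rpn1, Rpn10 and Rpn13. Its lid is a scaffold around Rpn11, the enzyme that cuts the ubiquitin chain off. In yeast these genes are switched on together by the factor Rpn4, and in animals the cap-n-collar family, in flies cnc, has that role when the proteasome is impaired. Several fly subunits have a second gene copy that is known for expression in the testis. Groucho is a corepressor without a DNA-binding domain of its own, which DNA-binding repressors such as Hairy and the E(spl) proteins bring to their targets.

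Regions were counted for these genes only within 1 kb of a gene start, so the promoter letters are shown first. The DNA replication-related element (DRE, TATCGATA) is an element of fly housekeeping promoters, and the factor DREF binds it. Its exact letters stood in 12 of 32 main promoters (37.5%), taken from 250 bases before to 50 bases from the most upstream transcription start site (TSS) on. In all 13945 protein-coding promoters of that length the share was 9.36%. The sites of 7 genes are printed 5′ to 3′ in the direction of the gene, from the RefSeq Release 6 genome (dm6), with the element in capitals. The first 3 belong to genes with a reproducible Groucho region and the others to genes without one.
Rpn3, chr2L:19051583-19051610, plus strand: gttatcggagTATCGATAtcgaaaaggc
Rpn12, chr3L:16582802-16582829, plus strand: tgttaaaataTATCGATAttaaagcaca
Rpt5, chr3R:23752820-23752847, plus strand: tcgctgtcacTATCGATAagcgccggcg
Rpn7, chr3R:22462034-22462061, minus strand: cggtataattTATCGATAattttggggt
Prosalpha6, chr2L:10221325-10221352, plus strand: ccgaatccctTATCGATAcccgatacac
Prosbeta2, chr3L:14999931-14999958, plus strand: catgaatataTATCGATAcaatatcgat
Prosbeta6, chr3L:16610445-16610472, minus strand: tatgtataccTATCGATAacgtttaagc
The 8 capital letters are their own reverse complement, so a match reads alike on both strands.

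Upstream stretches that hold the summit of a reproducible region are shown for 4 genes of the regulatory particle, where a long stretch before the start holds no annotated exon. Rpn12, Rpn1 and Rpt6 have no other protein-coding start within 1 kb. Each ends with the base just before the TSS, and the capitals mark the 21 bases centred on the summit, from the RefSeq Release 6 genome (dm6).
Rpn12, chr3L:16582828-16583027, plus strand: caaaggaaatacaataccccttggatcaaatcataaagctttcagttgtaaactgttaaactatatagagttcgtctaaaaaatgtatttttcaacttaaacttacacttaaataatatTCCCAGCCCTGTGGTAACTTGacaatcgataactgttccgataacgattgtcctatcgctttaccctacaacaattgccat
Rpn1, chr3L:19914851-19915050, plus strand: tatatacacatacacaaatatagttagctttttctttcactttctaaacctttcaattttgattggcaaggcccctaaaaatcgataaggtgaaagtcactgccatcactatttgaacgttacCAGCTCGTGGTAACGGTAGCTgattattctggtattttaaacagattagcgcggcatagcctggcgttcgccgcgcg
Rpn2, chr3R:29153324-29153523, plus strand: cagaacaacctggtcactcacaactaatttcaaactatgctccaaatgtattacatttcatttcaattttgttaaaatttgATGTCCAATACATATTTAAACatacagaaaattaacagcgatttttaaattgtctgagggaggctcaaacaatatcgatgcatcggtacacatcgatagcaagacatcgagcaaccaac
Rpt6, chrX:21315870-21316051, plus strand: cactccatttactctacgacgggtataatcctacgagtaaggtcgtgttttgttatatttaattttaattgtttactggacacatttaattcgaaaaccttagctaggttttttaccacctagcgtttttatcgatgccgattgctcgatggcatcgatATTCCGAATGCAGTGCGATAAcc
The stretch of Rpt6 lies inside an intron of CG1801. The 8-letter DRE is in none of these 4 stretches, but its central letters, ATCGAT, are. They begin 57 bases upstream of the TSS at Rpn12, 120 at Rpn1, 46 and 28 at Rpn2, and 52 and 29 at Rpt6. This shorter element was searched only after these stretches had been seen.

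A gene was counted as having an IDR site when the summit of a region in the authors' reproducible list, selected by the irreproducible discovery rate (IDR), was at most 1 kb from a TSS of that gene. It was counted as having a pooled region when the same held for the longer list called from both replicates together. The authors label the pooled and replicate lists as peaks and background for input to IDR. A region in these lists alone may therefore be background and is not by itself a bound site. The lowest signal in the pooled list was 21.4. The IDR list held 4492 regions and each of the other lists 30000. The signal is the value of the authors' peak caller, on a scale that is not stated, and it ran from 80.6 to 1892 in the IDR list with a median of 116. It was used to rank regions within a list and to set the replicate lists side by side, without scaling them to each other. Pooled and replicate signals are on different scales. Sequencing depth is unknown, because no list gives read counts.

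Of the 32 main genes 16 had an IDR site (50.0%, Wilson 95% interval 33.6 to 66.4), and 25.9% of all protein-coding genes did. Of the 16 paralogs 0 did, with an upper Wilson bound of 19.4%. A pooled region stood at 29 of the 32 main genes (90.6%) and at 2 of the 16 paralogs (12.5%), beside 57.3% of all protein-coding genes. Over the 48 members together, 16 had an IDR site (33.3%), 15 had a pooled region alone and 17 had neither. Of the 13 main genes with a pooled region alone, 6 had their highest one nearest to another gene's TSS. The intervals cover the counting error of so few genes and nothing else, and no test was run, since the genes were proposed with results of these data known.

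Within the main genes, 5 of 8 lid genes (62.5%, interval 30.6 to 86.3) and 7 of 10 base genes (70.0%, 39.7 to 89.2) had an IDR site. The core had fewer, with 2 of 7 alpha genes and 2 of 7 beta genes (28.6% each, 8.22 to 64.1). The core share was near the 25.9% of all protein-coding genes. For the regulatory particle as a whole the count was 12 of 18 (66.7%, 43.7 to 83.7) and for the core 4 of 14 (28.6%, 11.7 to 54.6). These intervals overlap. The median highest pooled signal was 105 over the 8 lid genes, 116 over the 9 base genes with a region, 54.1 over 5 alpha genes and 42.9 over 7 beta genes. Over all protein-coding genes with a pooled region that median was 74.5. Every lid gene and every beta gene had at least a pooled region, beside 57.3% of all protein-coding genes. With summits near more than 1 gene left out, the order of lid and core did not hold, at 1 of 8 lid genes (12.5%) and 1 of 7 alpha and 1 of 7 beta genes (14.3% each), beside 3 of 10 base genes (30.0%) and 11.1% of all protein-coding genes.

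**Figure D1:**
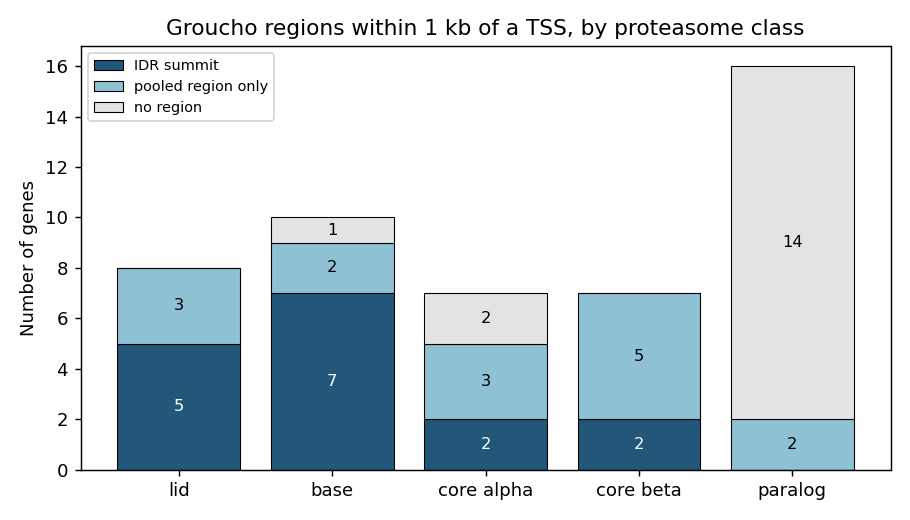
Number of genes (vertical axis, a count) with an IDR site, with a pooled region alone and with no region within 1 kb of a TSS, for lid, base, core alpha, core beta and paralogs. The lid and base columns are filled mostly by genes with an IDR site, 5 of 8 and 7 of 10, and 14 of the 16 paralogs have no region.

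The lid gene with the highest signal was Rpn6, a scaffold subunit, at 204 in the pooled list (rank 585). Its region, at 14752169 to 14752578 on chromosome arm 2R, was at 78.8 in replicate 1 and 120 in replicate 3 (99.5 ± 29.3, SD, n = 2). The summit lay 103 bp upstream of the nearest Rpn6 TSS, inside an Rpn6 intron and 147 bp from the start of ave. Replicate 3 was the higher here, and the SD was the widest of the 16 genes with an IDR site. Rpn5, another scaffold subunit, had 2 IDR sites in the stretch it shares with Hat1, a histone acetyltransferase gene. The higher, at 5789000 to 5789409 on 3R with a pooled signal of 166 (rank 974), was 288 bp upstream of Rpn5 and 131 bp from Hat1, in a Hat1 intron. It was at 86.9 in replicate 1 and 79.9 in replicate 3 (83.4 ± 4.92). Both Rpn5 sites lay nearer to Hat1, the weaker one, at a signal of 83.3, being 86 bp from Rpn5 and 23 bp from Hat1.

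The other 3 lid genes with a site had lower pooled signals than Rpn6 and Rpn5. Rpn12, the subunit whose stretch is printed above, had a region at 16582752 to 16583161 on 3L with a pooled signal of 135 (rank 1598), 71 bp upstream of its TSS and within 1 kb of no other protein-coding start. It was at 85.3 in replicate 1 and 50.2 in replicate 3 (67.7 ± 24.9). Rpn3 had a region at 19051621 to 19052030 on 2L with a pooled signal of 113 (rank 2386), 36 bp inside its 5′ UTR and 214 bp from l(2)37Bb. It was at 41.6 in replicate 1 and 75.9 in replicate 3 (58.8 ± 24.3). Rpn3 and Rpn12 are both structural subunits of the lid, and the replicate with the higher value was not the same at both. Rpn9 had a region at 23733190 to 23733599 on 3R with a pooled signal of 96.4 (rank 3263), 67 bp past its TSS in its 5′ UTR. It was at 29.8 in replicate 1 and 52.0 in replicate 3 (40.9 ± 15.7). In replicate 1 another region, 216 bp upstream of Rpn9, was higher, at 60.3, and Rpn9 was the 1 of the 16 genes where the matched region was not that list's highest within 1 kb.

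The lid genes without an IDR site include both of its MPN-domain subunits. Rpn11, the deubiquitinase itself, had a pooled signal of 29.1, 34 bp upstream of its TSS, with a region of 23.0 in replicate 1 and none in replicate 3. Rpn8, the partner that binds Rpn11, had a pooled signal of 61.1 at 270 bp upstream, in an intron of Slik. Its region was at 51.4 in replicate 1, and the replicate 3 list held none that overlapped it. Replicate 3 instead had a region of 66.2 (rank 2036) near the other Rpn8 TSS, 233 bp upstream, so the replicates placed their summits at different starts of the same gene. Rpn7, a scaffold subunit, had a pooled signal of 45.1 at 34 bp upstream, with 20.8 in replicate 1 and 18.0 in replicate 3. Sem1, a small lid subunit that is called Rpn15 in other species and so falls outside the naming rule, had no IDR site and a pooled signal of 59.6 at 90 bp.

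In the base, the large scaffold subunit Rpn2 had the highest signal, 189 in the pooled list (rank 700). Its region, at 29153210 to 29153619 on 3R, was at 108 in replicate 1 and 74.4 in replicate 3 (91.1 ± 23.6), 109 bp upstream of Rpn2 and 149 bp from Slbp, which encodes the histone stem-loop binding protein. Rpn1, its counterpart and a receptor for shuttle factors, was the lowest of the base genes with a site, at 86.5 (rank 3974). That region, at 19914779 to 19915188 on 3L, was at 43.6 in replicate 1 and 45.5 in replicate 3 (44.5 ± 1.35), 67 bp upstream of Rpn1 and near no other protein-coding start. The Rpn2 and Rpn1 replicate values did not overlap.

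The ubiquitin receptors Rpn10 and Rpn13 both had a site. Rpn10 had a region at 21536833 to 21537242 on 3L with a pooled signal of 144 (rank 1365), at 72.9 in replicate 1 and 71.1 in replicate 3 (72.0 ± 1.28). Its summit was 28 bp upstream of one Rpn10 TSS and inside the 5′ UTR that starts from the other. No other protein-coding start lay near. Rpn13, at 13960201 to 13960610 on 2R, had a pooled signal of 116 (rank 2244), at 55.1 in replicate 1 and 67.2 in replicate 3 (61.2 ± 8.58). Its summit was 2 bp from the Rpn13 TSS and 269 bp from CtsL1, a cathepsin gene. The Rpn10 replicates were the closest of all 16 genes in signal, with the SD of 1.28. By rank within each list they were not, at 1237 and 1740, beside 4210 and 4219 for Rpn1.

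Of the ATPase genes, Rpt5, Rpt2 and Rpt6 had a site. Rpt5 had a region at 23752642 to 23753051 on 3R with a pooled signal of 145 (rank 1364), at 66.3 in replicate 1 and 80.0 in replicate 3 (73.1 ± 9.68). The Rpt5 and RanBP3 starts are 42 bp apart, and the summit lay between them, 29 bp from Rpt5 and 13 bp from RanBP3. It therefore cannot be given to either gene by position. Rpt2 had a region at 23931276 to 23931685 on 3R with a pooled signal of 118 (rank 2167), at 61.9 in replicate 1 and 51.5 in replicate 3 (56.7 ± 7.41), 47 bp upstream of one Rpt2 TSS, in its 5′ UTR, and 158 bp from CG13599. Rpt6 had a region at 21315834 to 21316243 on X with a pooled signal of 92.7 (rank 3546), at 46.1 in replicate 1 and 48.0 in replicate 3 (47.1 ± 1.32), 13 bp upstream of its TSS. Rpt6 has no other protein-coding start within reach.

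The other 3 ATPase genes were low or empty. Rpt4 had a pooled signal of 62.0 at 58 bp upstream, where the summit fell on the TSS of mldr, with 21.5 in replicate 1 and 42.6 in replicate 3. Rpt3 had the lowest signal of any member with a region, 25.1, in its coding sequence 371 bp past the TSS, with 16.7 in replicate 1 and none in replicate 3. Rpt1 had no region in any of the 4 lists within 1 kb, the nearest pooled summit being 1913 bp and the nearest IDR summit 9876 bp away. The ATPases assemble side by side into a single ring, and their genes ranged from rank 1364 in the pooled list to no region.

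**Figure D2:**
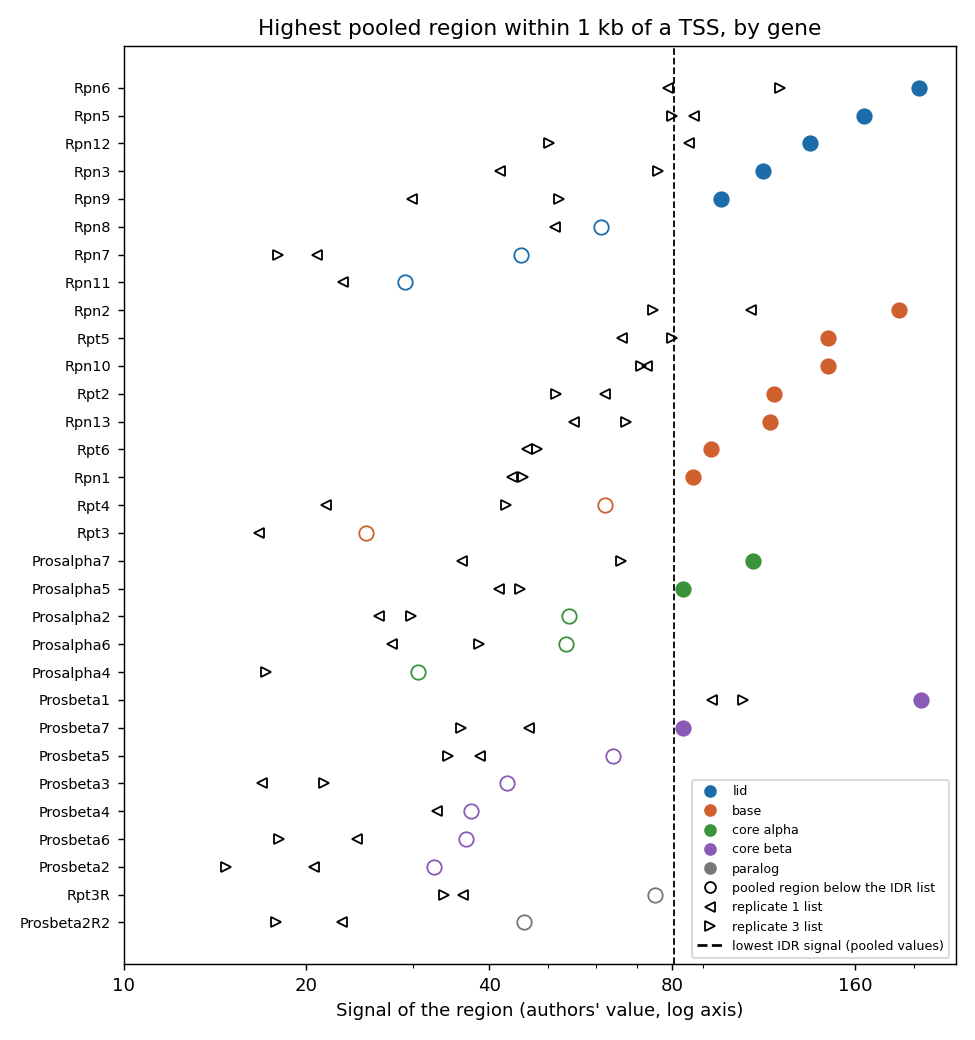
Signal on a log axis in the authors' pooled, replicate 1 and replicate 3 lists for each gene with a region, grouped by lid, base, core and paralog. The dashed line, at 80.6, is the lowest signal of the IDR list and applies to the pooled values, which reach 205 at Prosbeta1 and 204 at Rpn6.

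Among the alpha subunits, which form the outer rings of the core, Prosalpha7 and Prosalpha5 had a site. Prosalpha7, at 9847682 to 9848091 on 2R, had a pooled signal of 109 (rank 2587), at 36.1 in replicate 1 and 66.0 in replicate 3 (51.0 ± 21.2), 51 bp upstream of its TSS and 174 bp from CG1671. Prosalpha5, at 17412678 to 17413087 on 2R, had a pooled signal of 83.3 (rank 4225), at 41.5 in replicate 1 and 44.9 in replicate 3 (43.2 ± 2.39), 44 bp inside its 5′ UTR with no other protein-coding start near. Both belong to the outer rings, and Prosalpha5 stood close to the bottom of the IDR list. Below that list, Prosalpha2 was at 54.1 and Prosalpha6 at 53.5 in the pooled list. Prosalpha2 was at 26.3 in replicate 1 and 29.8 in replicate 3, and Prosalpha6 at 27.7 and 38.5. The Prosalpha2 summit lay 248 bp upstream, in the coding sequence of CG5245, and that of Prosalpha6 644 bp upstream, in the 5′ UTR of Npc1a. Prosalpha4 was at 30.5, at a summit 646 bp upstream in the 5′ UTR of kat80. An overlapping region was at 17.1 in replicate 3, and replicate 1 had none there. The highest pooled summits of these 3 genes thus lay within neighbouring genes. Weaker pooled summits lay at the genes' own starts, 2 bp from the TSS of Prosalpha4 and 23 bp from that of Prosalpha6. In replicate 1 the highest region within 1 kb was also at the gene itself, at 34.5 and 24 bp upstream for Prosalpha6 and at 15.5 and 33 bp downstream for Prosalpha4.

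Prosalpha3 and Prosalpha1 had no pooled region. At Prosalpha3 the replicate 1 list alone held a region, of 57.8 (rank 2267) and 43 bp upstream of the TSS, and the nearest IDR summit was 1337 bp away. Prosalpha1 and its paralog Prosalpha1R lie 3.09 kb apart on 2R, and of the 31-base words within 1 kb of either TSS 0.0% occur once in the dm6 genome. At the other 46 members at least 94.7% of these words occur once. An absence at Prosalpha1 and Prosalpha1R therefore cannot be told apart from reads that map to both copies, and whether such reads were kept is not given in the sources used here.

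Among the beta subunits, which form the inner rings, Prosbeta1, the caspase-like site, had the highest signal of all 48 members. Its region, at 16014642 to 16015051 on 2R, had a pooled signal of 205 (rank 580), at 93.0 in replicate 1 and 105 in replicate 3 (98.8 ± 8.32). The summit lay 60 bp upstream of Prosbeta1 and 61 bp from Rrp42, an exosome subunit gene, almost midway between them. Prosbeta7, a beta subunit without a proteolytic site, was far lower. Its region, at 5358004 to 5358413 on 3R, had a pooled signal of 83.4 (rank 4223), at 46.5 in replicate 1 and 35.9 in replicate 3 (41.2 ± 7.49). Its summit was 34 bp upstream of one TSS, in the 5′ UTR from the other, and near no other protein-coding start.

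Both remaining catalytic genes were below the IDR list. Prosbeta5, the chymotrypsin-like site, was at 63.9 in the pooled list, with 38.5 in replicate 1 and 34.2 in replicate 3. Its summit, 136 bp upstream, was nearer to dgo, at 42 bp. Prosbeta2, the trypsin-like site, was at 32.4, with 20.6 in replicate 1 and 14.7 in replicate 3, at a summit 928 bp upstream in the coding sequence of mRpL39. The other 3 beta genes, which like Prosbeta7 have no proteolytic site, also lay below the IDR list. Prosbeta3 was at 42.9, Prosbeta4 at 37.3 and Prosbeta6 at 36.6 in the pooled list. In replicates 1 and 3 respectively Prosbeta3 was at 16.9 and 21.4 and Prosbeta6 at 24.3 and 18.0, and Prosbeta4 was at 32.8 in replicate 1. In replicate 3 no region overlapped the pooled region of Prosbeta4, and the highest within 1 kb was at 20.1, 525 bp upstream. The summits were 254 bp upstream, in the 5′ UTR of Iru, for Prosbeta3, 119 bp past the start for Prosbeta4 and 25 bp past it for Prosbeta6.

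The IDR list ended at 80.6, just below the lowest of the 16 genes with a site. Nearest to its end on the inside were Prosalpha5 at 83.3, Prosbeta7 at 83.4 and Rpn1 at 86.5. Nearest on the outside were Rpt3R at 74.9, a paralog, and Prosbeta5 at 63.9. Of the 29 main genes with a pooled region, 24 had that region in both replicate lists. The share over all protein-coding genes with a pooled region was not counted, so whether this is usual is not known.

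How closely the replicates matched differed from gene to gene. Over the 16 genes the median signal was 58.5 in replicate 1 and 66.6 in replicate 3. The signal was higher in replicate 3 at 10 of them and in replicate 1 at 6. Of all protein-coding genes with an IDR site, 65.2% were higher in replicate 3. The replicate lists were not scaled to each other, and ranks within each list did not always follow. Prosbeta1 (ranks 612 and 768), Rpt6 (3748 and 3867) and Rpn1 (4210 and 4219) had the higher signal in replicate 3 but the better rank in replicate 1. The widest gaps in signal were at Rpn6 and Rpn3, where replicate 3 led, and at Rpn12 and Rpn2, where replicate 1 led. By rank the replicates were furthest apart at Rpn9 (8430 and 3330) and Prosalpha7 (6059 and 2042). Rpn6 was at ranks 983 and 558. At Rpn10, Rpt6, Rpn1 and Prosalpha5 the replicate signals differed by an SD of at most 2.39.

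**Figure D3:**
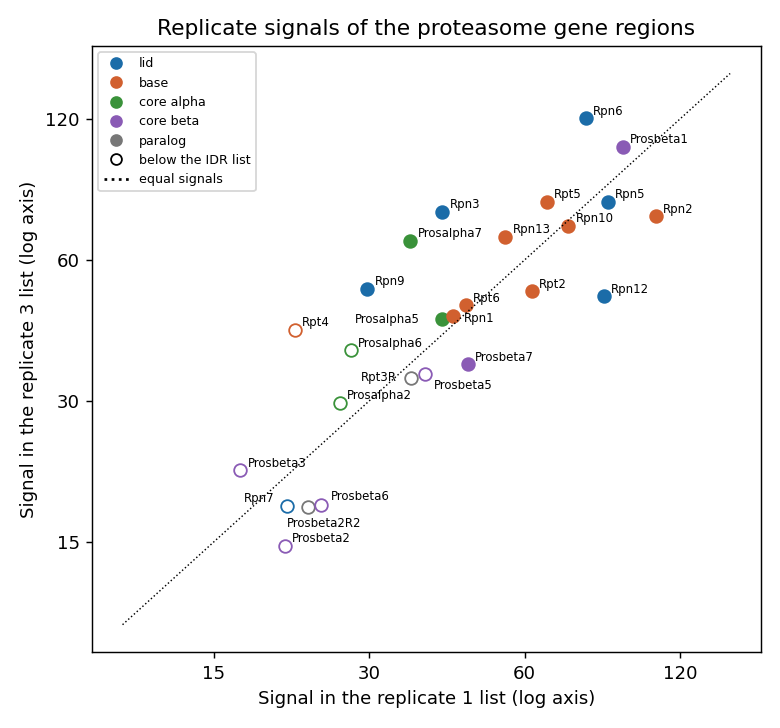
Signal of each gene's region in the replicate 1 list (horizontal log axis) against the replicate 3 list (vertical log axis), with filled points for genes with an IDR site and open points for genes with a pooled region alone. The dotted line marks equal signals, and Rpn6, at 78.8 and 120, and Prosbeta1, at 93.0 and 105, stand at the top.

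The sites lay close to gene starts. The median distance from the summit to the nearest TSS was 49.0 bp over the 16 genes and 117 bp over all 3612 protein-coding genes with an IDR site. Of the 16 summits 13 lay within 100 bp, beside 45.2% of all such genes. The others were those of Rpn6 and Rpn2, 103 and 109 bp away, and the stronger summit of Rpn5, 288 bp away. The summit was upstream of the nearest TSS at 13 of 16 genes, beside 76.7% of all. The height of the regions did not stand out, with a median of 117 over the 16 genes and 125 over all protein-coding genes with an IDR site. In the pooled list the medians were 83.4 over 29 main genes and 74.5 over all 7991 protein-coding genes with a region.

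**Figure D4:**
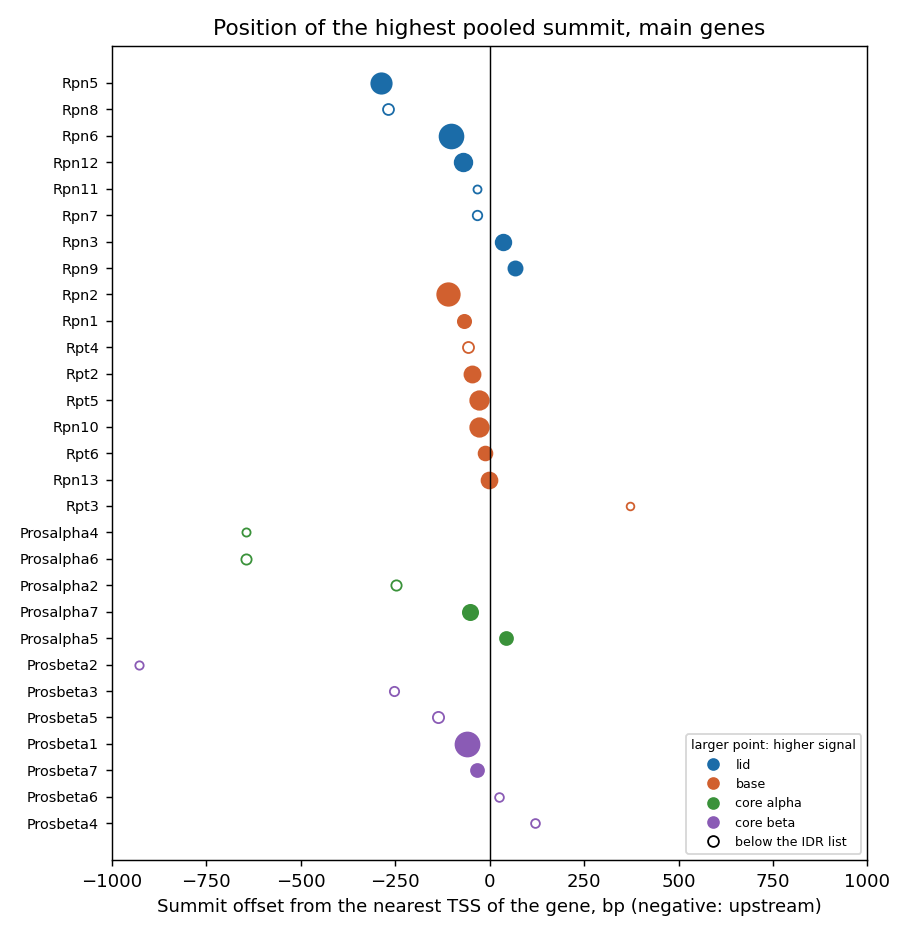
Position of the highest pooled summit of the 29 main genes with a region, relative to the nearest TSS of the gene, in bp on the horizontal axis, negative upstream, with 1 row per gene and open points for genes below the IDR list. Of the 16 filled points all but Rpn5, at -288, lie between -109 and 67, and the open points spread from -928 at Prosbeta2 to 371 at Rpt3.

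Many of these starts are shared with a neighbour on the opposite strand. Of the 32 main genes 22 had another protein-coding TSS within 1 kb, and at all 22 the nearest such neighbour was on the opposite strand. Not all of these pairs face apart, since at Rpn9 the 2 transcripts overlap. An IDR site was counted for 10 of these 22 (45.5%), beside 38.2% of all protein-coding genes with a neighbour TSS so close. Of the 10 main genes with none, 6 had an IDR site (60.0%, interval 31.3 to 83.2), beside 16.6% of all protein-coding genes with none. These 6 were Rpn12, Rpn10, Rpt6, Rpn1, Prosalpha5 and Prosbeta7. Of the 17 IDR summits near main genes 11 were counted for a second gene as well, and of all IDR summits within 1 kb of a TSS 38.1% were. The median signal of the sites counted for 1 gene alone was 89.6 and that of the 10 genes with a neighbour was 131. Which of 2 neighbouring genes a site belongs to was not tested.

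The paralogs, most of them copies known from the male germ line, were largely empty. In the pooled and both replicate lists 12 of 16 had no region within 1 kb. The share of all protein-coding genes with no region in these lists was not counted. These were Prosalpha1R, Prosalpha3T, Prosalpha4T1, Prosalpha4T2, Prosalpha6T, Prosbeta2R1, Prosbeta4R1, Prosbeta4R2, Prosbeta5R1, Prosbeta5R2, Rpn12R and Rpt4R. Rpn13R and Rpt6R had a region in replicate 1 alone, of 13.2 at 517 bp and of 22.3 at 487 bp upstream. Rpt3R had a pooled region of 74.9, at 36.2 in replicate 1 and 33.7 in replicate 3 (34.9 ± 1.80), 81 bp past its TSS and nearer to Alg12, at 62 bp. Prosbeta2R2 had one of 45.6, at 22.9 in replicate 1 and 17.8 in replicate 3 (20.4 ± 3.56), nearer to CG1116, at 71 bp. In both cases the paralog had the higher pooled signal than its main gene, since Rpt3 was at 25.1 and Prosbeta2 at 32.4. A neighbour TSS within 1 kb was present at 4 of the 16 paralogs, and both paralogs with a pooled region were among these 4. Paralogs and main genes thus differ in how close their neighbours are, and the part of this in the difference in regions was not tested.

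Exact letters of 12 motifs were counted on both strands in the promoters. The DRE was in 7 of the 16 main promoters with an IDR site (43.8%), in 5 of the 16 without (31.2%) and in 0 of 16 paralog promoters. Among all protein-coding genes with an IDR site its share was 15.3%. None of the 12 matches in main promoters overlapped another of the motifs, 10 began upstream of the TSS and 6 within 100 bp upstream. The window held 250 bases before the TSS and 50 from it on, so most matches would begin upstream by its shape alone. Match positions over all promoters were not counted, and no preferred position can be read from these counts. The 12 genes come from every class, with Rpn3, Rpn7, Rpn9 and Rpn12 of the lid, Rpn13 and Rpt5 of the base, Prosalpha3, Prosalpha5 and Prosalpha6, and Prosbeta1, Prosbeta2 and Prosbeta6. The shorter ATCGAT, which lies inside the DRE, was in 17 of 32 main promoters (53.1%) and in 23.3% of all. It was in 11 of the 16 main promoters with an IDR site (68.8%), in 6 of the 16 without (37.5%) and in 32.0% of all promoters with an IDR site.

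The letters of repressors known to recruit Groucho were counted in the same way. The box of Hairy and the E(spl) proteins (CACGCG) and the E-box CACGTG were in 0 of 32 main promoters each. The respective shares were 6.12% and 4.20% of all protein-coding promoters. The Runt letters (TGTGGT) were in 6 of 32 (18.8%), beside 12.1% of all. Those of Tcf (CTTTGAT) and Brinker (GGCGCC) were in 1 of 32 each, beside 5.01% and 4.54% of all. TAATTA, shared by homeodomain proteins, was in 3 of 32 (9.38%), beside 20.4% of all. Of the other core promoter elements, the core of motif 1 (GGTCACAC) was in 5 of 32 (15.6%), beside 7.70% of all, TATAAA in 13 of 32 (40.6%), beside 45.8%, and GAGAG in 3 of 32 (9.38%), beside 29.7%. The antioxidant response element, to which cnc proteins bind (TGACNNNGC), was in 5 of 32 (15.6%), beside 8.63% of all. The E-box of motif 5 (CAGCTG) was in 1 of 32 (3.12%), beside 17.7% of all. A match is a run of letters and not a bound site.

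Within 100 bp of the 17 IDR summits, the DRE was found at 4 (23.5%), those of Prosbeta1, Rpn3, Rpn9 and Rpt5. Its share at all 3089 IDR summits within 1 kb of a TSS was 9.03%. ATCGAT was at 9 of the 17 (52.9%), beside 20.2% of all. The letters of cnc proteins were at 3, those of Prosbeta7, Rpn1 and Rpt6 (17.6%, beside 6.09%), and the Runt letters at 3, those of Rpn12, Rpn2 and Rpt6 (17.6%, beside 8.03%). CACGTG was at 0, beside 3.27%, and CACGCG at 1, that of Prosalpha5 (5.88%, beside 7.41%). Each count rests on so few summits that these shares are descriptions.

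**Figure D5:**
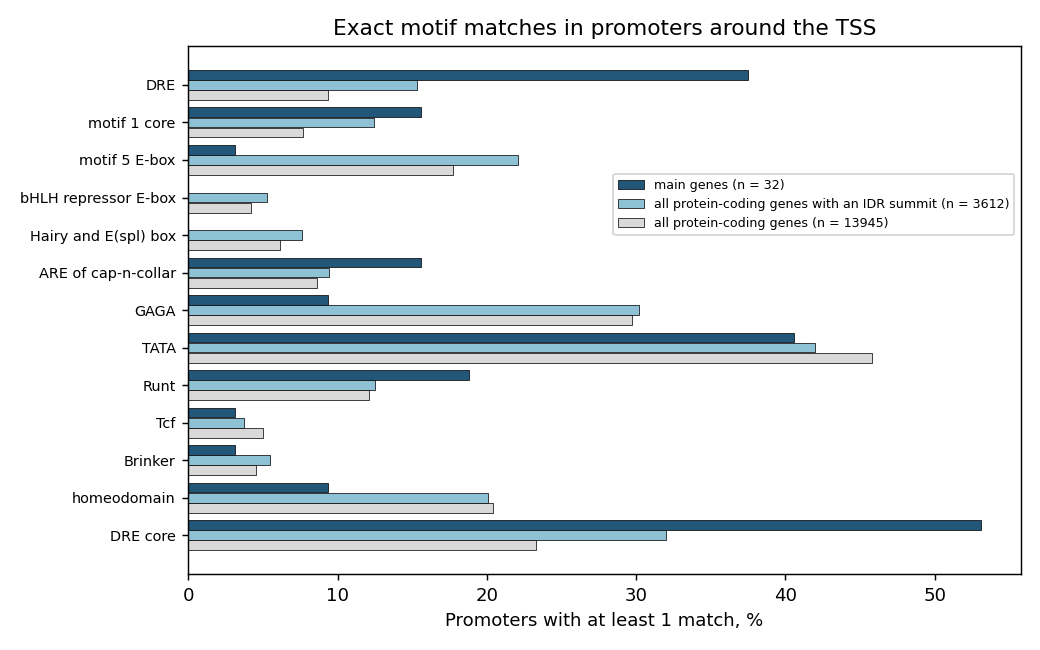
Share of promoters, in percent, with at least 1 exact match of each motif, for the 32 main genes, all protein-coding genes with an IDR site and all protein-coding genes. The DRE bars are at 37.5%, 15.3% and 9.36%.

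Beyond the subunits, a list of 28 other genes of the ubiquitin-proteasome route was examined, of which 27 matched a protein-coding gene. An IDR site was counted for 15 of the 27 (55.6%), again beside 25.9% of all protein-coding genes. A pooled region stood at 23 of the 27 (85.2%), beside 57.3% of all. With a pooled region alone there were 8 genes, and 4 had no region. Of the genes for assembly and regulation, Pomp, the chaperone that matures the core, had an IDR signal of 142. The inhibitor PI31 at 36.4 and the core activator REG at 79.2 were below the IDR list, the REG region lying 731 bp away and nearest to sno. The polyubiquitin gene Ubi-p63E was at 130 and Ubi-p5E at 105. Both ubiquitin genes therefore had a site.

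Of the conjugation genes, the activating enzyme Uba1 was at 106 and the conjugating enzymes eff at 160 and Ubc4 at 108. The ligases Ufd4, at 156, Ube3a, at 133, and STUB1, at 98.1, also had a site, though the Ube3a summit, 178 bp away, was nearest to CG7600. Ubc10 at 43.9 and Prp19 at 43.6 did not reach the IDR list, and poe had no region. Among the deubiquitinases, Usp5, which disassembles free chains, was at 119, Usp14, which works on the proteasome, was at 35.3, and its partner in that role Uch-L5 had no region. The shuttle protein rngo was at 128, while Ubqn at 58.3 and Rad23 at 53.0 had a pooled region alone. The segregase TER94, which extracts ubiquitin-tagged proteins, and its cofactor Npl4 had no region, and the cofactors Ufd1, at 148, and p47, at 88.4, had a site.

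The list held 3 regulators of proteasome gene expression, of which cnc and Keap1 had a site. The activator cnc had an IDR signal of 169 and 4 IDR summits within 1 kb of its several starts. Keap1, which restrains cnc, was at 195, also with 4 summits, though its highest summit was 794 bp away and nearest to kuk. How many of all protein-coding genes have as many summits was not counted. The partner maf-S was at 65.3 in the pooled list, below the IDR list and nearest to CG11110.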

How the data were processed

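Regions of anti-GFP ChIP-seq were used from 4 dm6 lists, 1 per replicate, 1 from both replicates pooled and 1 IDR list, all deposited by the authors. Per the deposited manifest, a control alignment entered the calling. For the aligner, peak caller, settings and IDR threshold the sources used here give nothing. The signal of each region is the authors' value from their peak caller, on no stated scale. The −log10 of a q value that the authors deposited beside it reaches 1 maximum shared by many regions, so it ranked nothing here. Lists in the dm3 build were not used.

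Gene models came from Ensembl release 115 and sequence from RefSeq Release 6, with 13945 protein-coding genes on 6 arms. Summits were assigned to every gene with a TSS within 1 kb, and the highest signal was kept. Replicate regions were matched to the pooled region by an overlap of at least 1 bp. Depth is unknown. Python 3.11.15 with numpy 2.4.6 was used, and the assignment was checked on simulated regions. Wilson 95% intervals cover counting error alone.

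The genes, the list of 28 pathway genes, the motifs and the rule for named genes were chosen with earlier results of these data known. By that rule all members are accounted for, main genes with an IDR site by their values in every list. A neighbouring gene of 1 member is not reported here. The members were not tested as a set. The alternatives were other distance limits, the nearest or the most upstream TSS, interval overlap, shared summits left out, the 2246 highest IDR regions, the pooled list and each replicate left out.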

Additional observations from a re-analysis of the deposited data

How the results depend on the processing

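With limits of 250 or 500 bp, or the most upstream TSS alone, the same 16 main genes (50.0%) had an IDR site. The respective shares of all protein-coding genes were 19.9%, 22.9% and 24.2%. Within 2 kb there were 19 (59.4%), adding Prosalpha3, Prosbeta6 and Rpn11, beside 30.6%. Assigning each summit to its nearest TSS left 14 (43.8%), without Rpn5 and Rpt5, beside 19.2%. Interval overlap gave 17 (53.1%), adding Prosbeta6, beside 26.7%.

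Leaving out summits near more than 1 gene left 6 of 48 members (12.5%), beside 11.1% of all protein-coding genes. All 6 were main genes, 18.8% of the 32, where the main setting gave 50.0% beside 25.9%. These were 1 lid, 3 base, 1 alpha and 1 beta gene, with 9 pathway genes, and the median signal was 89.6. The 2246 highest IDR regions gave 9 members (18.8%), beside 15.1% of all genes. All were main genes (3 lid, 5 base, 0 alpha and 1 beta), with a median of 145. All pooled regions gave 31 members (64.6%), beside 57.3% of all genes. These were 29 main genes (8 lid, 9 base, 5 alpha and 7 beta) and 2 paralogs, with 23 pathway genes and a median of 83.4. Paralogs stood at 0 in every other setting.

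The highest 4492 regions of a single replicate list gave 15 to 16 members (31.2% to 33.3%), all main genes. The shares of all protein-coding genes were 25.4% without replicate 1 and 25.5% without replicate 3. The counts were 5 to 6 lid, 7 base, 1 to 2 alpha, 1 to 2 beta and 15 to 18 pathway genes. Without replicate 1, Prosbeta7 was lost and Rpn8 gained. Without replicate 3, Prosalpha5, Prosalpha7 and Rpn3 were lost and Prosalpha3 and Rpn8 gained. The medians of 61.9 to 66.7 are on the scale of the replicate signals. No paired analysis was possible because the series has 1 group and no result comes from a test.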
